A study of Mus musculus with 42 samples.

Results

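Foxa1, Gata3, Xbp1, Stat5a, Esr1 and Erbb3, 6 regulators of the luminal mammary lineage and of its response to hormones and growth factors, were followed across 21 mouse mammary tumours. They were taken as the genes to which the platform annotation assigns a probe on its own, which gave 10 of the 22800 probes of the array and 6 of its 15096 genes. One probe of each gene was measured on enough arrays to be tested, and these 6 probes stood among 9407 tested probes. Foxa1 is a pioneer factor that opens chromatin for the oestrogen receptor, and Gata3 is needed to form and keep luminal cells. Xbp1 drives the secretory programme when its RNA is spliced in response to unfolded protein, Stat5a carries the prolactin signal to milk protein genes, Esr1 is oestrogen receptor alpha, and Erbb3 is the neuregulin receptor that signals as a partner of Erbb2.

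The tumours came from neoplasms of mice carrying FVB/N-Tg(WapMyc)212Bri, in which the promoter of the milk protein gene Wap drives Myc in mammary epithelium, so every tumour derives from that transgene and there is no control tissue. The labels describe lines obtained by selection in vivo: glandular tumours, solid or comedo tumours without or with lung metastases, and spindloid tumours of mesenchymal form. They do not tie a tumour number to a line, a host, a passage or an age, so no line was compared with another here, and tumours are given by number. Each tumour was measured on 2 arrays, dye-swapped against a universal mouse reference RNA, so the p-values measure hybridisation error within these tumours and not the spread between animals of a line.

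A level below is the fitted log2 ratio of tumour to reference for 1 probe, with its standard error (SE) for 2 arrays. The SE comes from the error variance of the probe pooled over all tumours. It is the same for every tumour with both arrays measured and does not show how far apart the 2 arrays of a tumour lie. Levels of different genes are not compared with each other, and for probes of the same gene only the order of tumours and the side of 0 are. The direction against the reference was not recorded: it was set so that Myc, the transgene, was above the reference in the middle tumour, which makes every sign below likely and not certain. Between 8600 and 21328 probes were measured on an array, with a median of 17478.5. Median levels over all measured probes of a tumour ran from -0.74 in tumour 660 to 0.70 in tumour 669, and levels are therefore also given after centring each array on its own median. The arrays of tumour 656 correlated at 0.074 before turning, where those of the other tumours fell below 0, as a dye swap gives. Those of tumours 639, 647 and 660 were also near 0, at -0.058, -0.06 and -0.065. Among markers of other cells, the median of 10 mesenchymal genes ran from -4.69 to 1.31, that of 12 epithelial genes from -1.19 to 3.18 and that of 9 macrophage genes from -2.67 to 1.88. In bulk tumour RNA, fewer cells of a type and less RNA per cell cannot be told apart.

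Differences between the tumours passed the threshold for 5 of the 6 regulators: Xbp1, Erbb3, Gata3, Stat5a and Foxa1 did, and Esr1 did not. The test was limma's moderated F test over 21 tumours with a term for dye orientation, Benjamini-Hochberg adjusted over all tested probes, with a threshold of 0.05. By the same test 45.9% of all tested genes and 43.9% of all tested probes passed, so passing was common on these arrays. Without the dye term only Xbp1 passed, where 20.1% of genes did. With arrays centred on all measured probes Xbp1, Erbb3 and Gata3 passed, where 27% of genes did. Xbp1 is thus the regulator whose variation was measured most firmly, and Foxa1 and Stat5a lie close to the threshold.

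**Figure D1:**
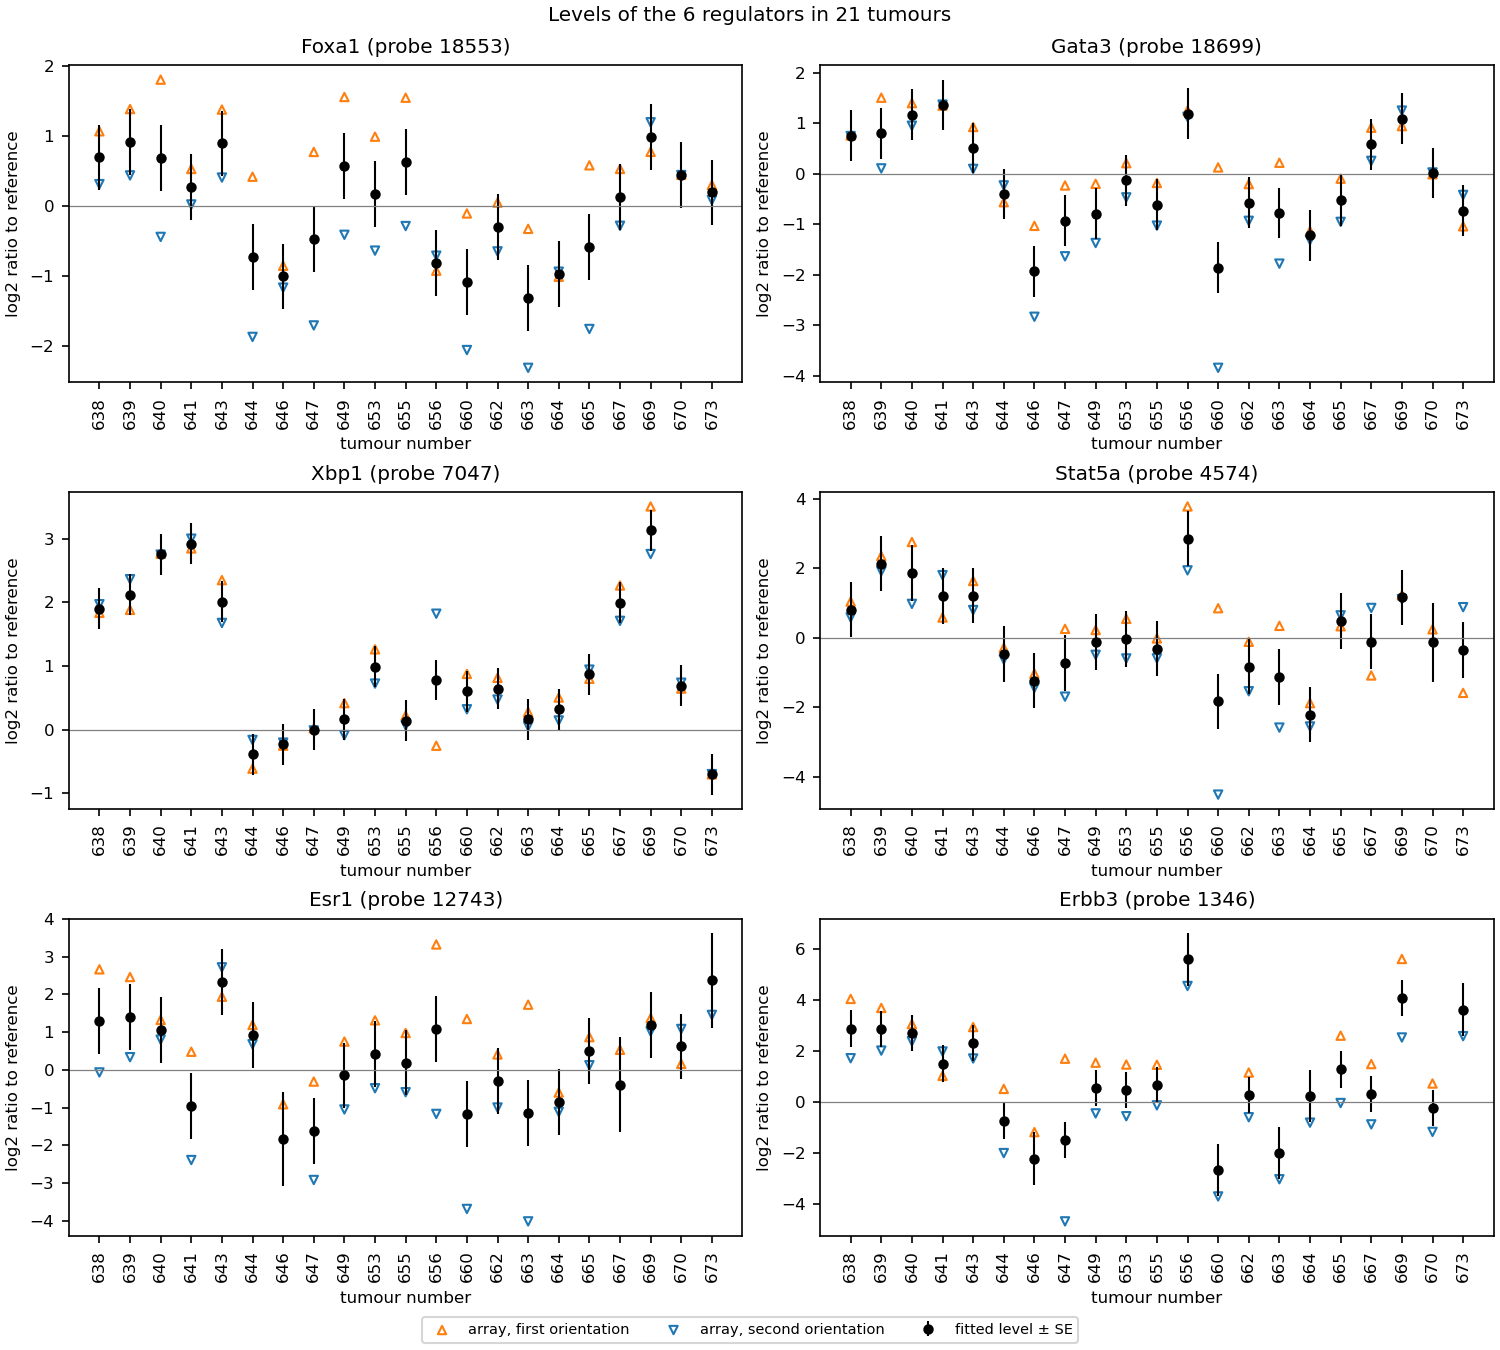
Log2 ratio to the reference (y axis) of the tested probe of each regulator in each of 21 tumours (x axis, tumour number); triangles are single arrays in their 2 dye orientations and black points are fitted levels with their SE. The 2 arrays of a tumour lie close together for Xbp1, except in tumour 656, and far apart for Foxa1, Esr1 and Erbb3 in many tumours.

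Xbp1 varied most clearly. Its level was -0.70 in tumour 673, 0.69 in the middle tumour and 3.13 in tumour 669, with an SE of 0.32, a span of 14.2-fold (adjusted p = 3.4e-06, limma's moderated F test). The highest levels were 3.13 in tumour 669, 2.92 in 641 and 2.75 in 640. Behind them came 2.12 in tumour 639, 2.01 in 643, 1.99 in 667 and 1.90 in 638. These 7 tumours were apart from the next, tumour 653 at 0.99, although that single step of 0.91 did not pass the test (adjusted p = 0.268, limma contrast). The lowest levels were -0.70 in tumour 673, -0.39 in 644, -0.23 in 646 and 0.00 in 647.

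Of the 210 pairs of tumours, 77 differed in Xbp1, against 6.1% of pairs over all tested probes. Each of the 7 high tumours was above 8 to 14 others, and tumour 673 was below 9. No step between neighbours in the order passed the test. Both arrays were above 0 in 15 tumours and below 0 in 3, and a pair of arrays disagreed in sign in 3. The arrays of tumour 656 read -0.25 and 1.82, the widest gap for this gene, while those of tumour 673 both read -0.70. The variance share between tumours, the intraclass correlation, was 0.869, beside a median of 0.39 over all tested genes. After centring, Xbp1 ran from -0.88 in tumour 673 to 2.71 in 641, and 37 pairs differed.

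**Figure D2:**
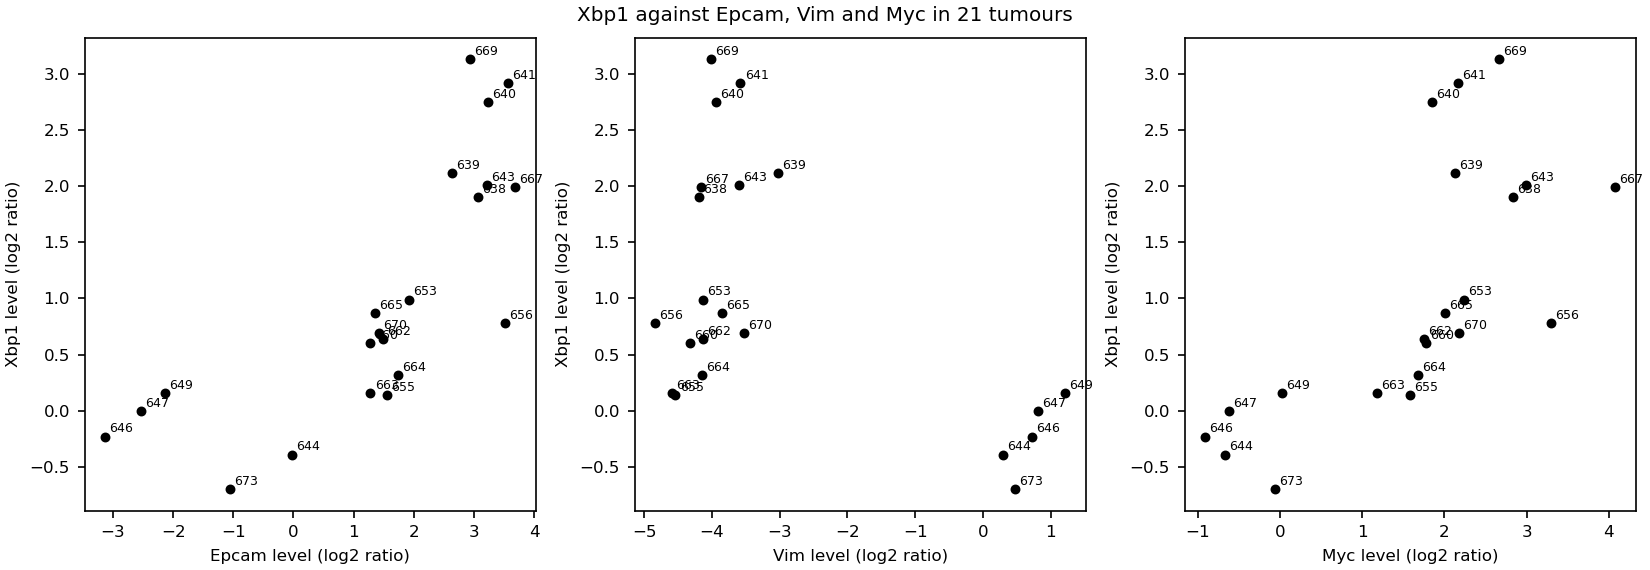
Xbp1 level (y axis, log2 ratio) against the levels of Epcam, Vim and Myc (x axes, log2 ratio), 1 point per tumour with its number. The 5 tumours with the highest Vim, 644, 646, 647, 649 and 673, have Xbp1 at 0.16 or below, and the 7 tumours with the highest Xbp1 all have Epcam at 2.64 or above.

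Xbp1 was set beside 3 single markers: Epcam, an adhesion protein of epithelium, Vim, an intermediate filament of mesenchymal cells, and Myc, the transgene. Vim was between 0.30 and 1.22 in tumours 644, 646, 647, 649 and 673 and at -3.02 or below in the rest. Those 5 tumours had Xbp1 levels of -0.39, -0.23, 0.00, 0.16 and -0.70, and they also had the lowest Epcam and Myc. Among tumours with low Vim, Xbp1 was 0.14 in tumour 655 and 0.16 in 663, level with tumour 649 but above the rest of the 5. With arrays centred, Xbp1 in the 5 was -0.45, 0.27, 0.19, -0.08 and -0.88, in the same order. It was then 0.47 in tumour 655, the lowest of those with low Vim, and 0.89 in 663. The 10 mesenchymal genes had medians of 0.71 to 1.31 in those 5 tumours and at most -2.02 in the others, and the part of the cell mixture in the Xbp1 levels was not tested.

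No correlation over all 21 tumours is given for Xbp1, because its levels and those of these markers fall into separate groups (Gaussian mixtures fitted with mclust). Within groups, relations of Xbp1 with Epcam, Vim or Csn2 did not pass. With Myc, in 9 tumours of low Xbp1 and high Myc, r was 0.671 (adjusted p = 0.182, exact permutation test) and rho was 0.883 (adjusted p = 0.0257, exact permutation test). After centring, r was 0.298, and without the 2 tumours farthest from the median Xbp1 it was 0.467. In the 7 tumours of high Xbp1 and high Myc the values had the opposite sign, r = -0.523 (adjusted p = 0.565) and rho = -0.571 (adjusted p = 0.429), by the same exact permutation test, and r = -0.731 with arrays centred. Gata3 and Xbp1 had r = 0.881 within the 7 tumours of high Xbp1 (adjusted p = 0.114, exact permutation test) and r = 0.382 within the other 14 (adjusted p = 0.479, permutation test).

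Around Xbp1, 23 of 37 tested genes of a list on the unfolded protein response and secretion differed between tumours, or 62.2% where 45.9% of all genes did. Without the dye term 13 did, and with centred arrays 10, which is a share equal to that of all genes at 27%. The list's median standard deviation between tumours was 0.74, beside 0.82 over all genes.

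Ero1a, an oxidase for disulphide bonds in the endoplasmic reticulum, ran from -3.97 in tumour 656 to -0.04 in 655 (SE 0.34, adjusted p = 7.25e-06, limma). Creld2, a chaperone-like protein released under stress of that organelle, ran from -1.98 in tumour 664 to 1.09 in 669 (SE 0.30, adjusted p = 2.46e-05, limma). The translocon subunit Sec61g ran from -1.39 in tumour 655 to 0.86 in 641, and its adjusted p moved from 5.22e-05 to 0.234 with centred arrays (limma). Sec24d, a coat subunit of vesicles leaving the endoplasmic reticulum, ran from -5.34 in tumour 663 to 1.03 in 649 (SE 0.59, adjusted p = 0.000102, limma). Ern1, the sensor that splices Xbp1 RNA, had a median of -1.24 (adjusted p = 0.515, limma), and the chaperone Hspa5 had a median of -0.64 (adjusted p = 0.109, limma). The annotation does not say whether the Xbp1 probe reads spliced or unspliced RNA.

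Gata3 was highest at 1.36 in tumour 641, 1.19 in 656, 1.17 in 640 and 1.09 in 669. It was lowest at -1.93 in tumour 646, -1.86 in 660 and -1.22 in 664, with a median of -0.40 and an SE of 0.50 (adjusted p = 0.00532, limma's moderated F test). The high and low ends were apart in 19 of the 210 pairs: tumours 646 and 660 were each below 8 others. Both arrays were above 0 in 8 tumours and below 0 in 9. The low values rest partly on single arrays, since tumour 660 read 0.12 in one orientation and -3.84 in the other, and without 1 array of it 67 pairs differed. Without 1 array of tumour 646, 10 did. Without the dye term the adjusted p was 0.0615, and with centred arrays 0.0365, with a span from -1.43 in tumour 646 to 1.21 in 656 (limma). Left out in turn, every one of the 42 arrays left Gata3 past the threshold, with adjusted p from 6.89e-05 to 0.0127.

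Foxa1 ran from -1.32 in tumour 663 through a median of 0.17 to 0.98 in tumour 669, with an SE of 0.47 (adjusted p = 0.038, limma's moderated F test). Only 3 of 210 pairs differed: tumour 663 was below tumours 639, 643 and 669. Without 1 array of tumour 663 none did. The 2 arrays of a tumour lay on opposite sides of 0 in 9 tumours. The dye offset was 0.55 on average: readings in one orientation lay higher by that amount, and those in the other lower by that amount. Without a term for it the adjusted p was 0.551 (limma). It was 0.0733 with centred arrays, where the ends were other tumours, -0.80 in 656 and 0.95 in 655, with 663 at -0.59 and 669 at 0.29. It was 0.114 with the slide run, read from running numbers in the titles, as a block. Leaving out a single array ended the call for 16 of 42 arrays, with adjusted p up to 0.0668: at least 1 array of tumours 638, 639, 641, 643, 646, 649, 653, 655, 660, 662, 663 and 664. The other Foxa1 probe was measured on both arrays of 11 tumours and was not tested. It too was highest in tumour 669, at 2.46, but there on 1 array. The 2 probes lay on opposite sides of 0 in 8 of the 20 tumours where both had a value. In tumour 641, for example, they were at 0.27 and -1.64, the second on 1 array.

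Within the wider family, 1 of 9 tested Fox and Gata genes and cofactors passed, or 11.1% where 45.9% of all genes did. This was Foxc1, a forkhead gene of mesenchyme and of basal-like cells, which ran from -5.26 in tumour 644 to 1.67 in 643 (SE 0.57, adjusted p = 0.0153, limma). The call was lost without the dye term (adjusted p = 0.107). Gata4, Foxo1 and Foxm1 did not pass, with adjusted p of 0.11, 0.174 and 0.154 (limma).

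Windows of 250 bases before the annotated starts of these genes were searched for the words that such factors bind, on both strands, with sequences from RefSeq on GRCm38.p6. A window was listed for 5 of the 6 genes, 7 in all with the alternative starts of Esr1 and Stat5a. The forkhead word TGTTTAC occurs in 3.17% of 32851 such windows of the genome and in 1 of these 7, that of Foxa1 itself. The STAT word TTCNNNGAA occurs in 7.02% and in 1 of the 7, a start of Esr1. They are shown because the first is a word for the gene's own factor family and the second a word for Stat5a at the gene of a correlated receptor. Capitals mark the word, each is written 5′ to 3′ on the gene's strand, and both starts lie inside the span of the longest transcript.
Foxa1, chr12:57546234-57546263, minus strand: tatactgctttGTAAACAaagtgagggcca
Esr1, chr10:4709960-4709989, plus strand: ctggagtttcTTCTAGGAAtgctgattcta
The Foxa1 word lies 135 to 141 bases before the start and reads TGTTTAC on the other strand, and the Esr1 word lies 180 to 188 bases before the start. None of the 7 windows held the GATA words AGATAA or TGATAA or the Xbp1 word TGACGTGG, which occur in 9.99%, 7.94% and 0.563% of all windows. A match is a description of letters and not a bound site.

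Stat5a was highest at 2.85 in tumour 656, 2.13 in 639 and 1.86 in 640. It was lowest at -2.21 in tumour 664 and -1.83 in 660, with a median of -0.13 and an SE of 0.80 (adjusted p = 0.0354, limma's moderated F test). Only 7 of 210 pairs differed, all of them between tumours 639, 640 and 656 at the top and 646, 660, 663 and 664 at the bottom. The arrays of tumour 656 read 3.77 and 1.94, and those of tumour 660 read 0.85 and -4.51. Without 1 array of tumour 660, 39 pairs differed, and without 1 array of tumour 656, 3 did. Without tumour 656 the adjusted p was 0.094, without the dye term 0.112 and with centred arrays 0.0676 (limma). Leaving out a single array ended the call for 17 of 42 arrays, with adjusted p up to 0.0798. They were arrays of tumours 639, 640, 643, 646, 649, 655, 656, 662, 664 and 669.

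In the prolactin, JAK and STAT5 list, 10 of 17 tested genes differed between tumours, or 58.8% where 45.9% of all genes did. Without the dye term 6 did, where 20.1% of all genes did. Csn2, the milk protein beta-casein and a textbook Stat5a target, ran from -1.62 in tumour 646 to 7.54 in 641 (SE 0.59, adjusted p = 8.03e-08, limma). Its levels did not follow those of Stat5a over the 21 tumours (r = -0.112, adjusted p = 0.738; rho = -0.023, adjusted p = 0.922; permutation test). Without the 2 tumours farthest from the median of Stat5a, r was 0.086. Socs2, a feedback inhibitor induced by Stat5, was highest in the same tumour as Stat5a, at 4.43 in tumour 656, and lowest at -1.21 in 662 (adjusted p = 2.52e-05, limma). Ghr, the growth hormone receptor, ran from -1.62 in tumour 638 to 0.63 in 670 (adjusted p = 0.00066, limma), and Socs3 from -2.68 in tumour 663 to 0.70 in 649 (adjusted p = 0.000703, limma).

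Esr1 did not pass the test (adjusted p = 0.198, limma's moderated F test). Its fitted levels were -1.83 in tumour 646, 0.41 in the middle tumour and 2.37 in tumour 673, with an SE of 0.87 over 2 arrays. Both extremes rest on 1 array, with an SE of 1.25. Their readings before the dye term were -0.914 in tumour 646 and 1.455 in 673. Tumour 663 shows the spread between arrays: it read 1.73 in one orientation and -4.02 in the other. The 2 arrays were on opposite sides of 0 in 9 tumours and the dye offset was 0.92. No pair of tumours differed after adjustment, and 20 of 210 were under an unadjusted p of 0.05 (limma contrasts). With the repeated top value kept 12 pairs differed and the span was 11.22 in place of 4.21 on the log2 scale, and without tumour 656 a single pair differed. Leaving out 1 array moved the count for 8 of 42 arrays, up to 6 pairs without 1 array of tumour 663. The intraclass correlation was 0.177. Of the other Esr1 probes, one was measured on both arrays of 13 tumours and the other on those of 6. With a looser filter on blank values their adjusted p were 0.357 and 0.972 (limma). They lay on the opposite side of 0 from the tested probe in 4 of 19 and 7 of 16 tumours.

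Among the oestrogen receptor family and its coregulators 3 of 12 tested genes passed, or 25% where 45.9% of all genes did. With centred arrays 1 did, where 27% of all genes did. Med1, a mediator subunit that contacts nuclear receptors, ran from -1.02 in tumour 663 to 1.24 in 641 (adjusted p = 0.000664, limma; 0.336 with centred arrays). Esrra, an orphan receptor of energy metabolism, ran from -2.49 in tumour 663 to 3.05 in 660 (adjusted p = 0.00318, limma; 0.0563 without the dye term). Ncoa2, a steroid receptor coactivator, ran from -1.16 in tumour 660 to 0.97 in 643 (adjusted p = 0.0152, limma; 0.683 with centred arrays and 0.163 without the dye term). Pgr, the progesterone receptor and a target of Esr1, had too few measured arrays to be tested, as did Esr2.

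Erbb3 ran from -2.66 in tumour 660 through a median of 0.55 to 5.59 in tumour 656, with an SE of 0.71 over 2 arrays and 1.03 where only 1 array was measured (adjusted p = 0.00139, limma's moderated F test). Both ends rest on 1 array, and the dye term shifted them: the readings were -3.70 in tumour 660 and 4.551 in 656. Among tumours with both arrays it was highest at 4.07 in tumour 669, 2.88 in 638 and 2.85 in 639, and lowest at -1.49 in tumour 647. Of 210 pairs, 45 differed: tumour 656 was above 12 others and tumour 669 above 10. Tumours 646, 647, 660 and 663 were each below 7. The arrays of tumour 647 read 1.70 and -4.68, and without 1 of them 90 pairs differed. Without tumour 656 the span fell from 8.25 to 6.73 on the log2 scale and Erbb3 still passed.

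Its dye offset was 1.04, and without a term for dye the adjusted p was 0.139 (limma). It passed with centred arrays (adjusted p = 0.00654) and after each of the 42 single arrays was left out (adjusted p from 3.21e-05 to 0.00345). The second Erbb3 probe, measured on both arrays of 7 tumours, was at -3.67 in tumour 646 and -3.36 in 660, where the tested probe was also low. It was 3.55 in tumour 639 and 3.20 in 656. Each of these values rests on 1 array. In tumours 646, 660 and 656 that is also the only array on which the tested probe was measured. The 2 probes lay on opposite sides of 0 in 4 of 17 tumours: 644, 649, 667 and 670.

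In the ErbB list 8 of 15 tested genes passed, or 53.3% where 45.9% of all genes did. Without the dye term 5 did, where 20.1% of all genes did. Erbb2, the partner of Erbb3, ran from -1.94 in tumour 646 to 0.63 in 643 (SE 0.45, adjusted p = 0.0471, limma; 0.843 without the dye term). Erbb4, another neuregulin receptor, ran from -3.77 in tumour 663 to 2.75 in 669 (SE 0.92, adjusted p = 0.0357, limma; 0.408 without the dye term). Egfr, the receptor of epidermal growth factor, ran from -0.87 in tumour 655 to 1.01 in 641 (SE 0.25, adjusted p = 0.00122, limma). Its ligand Tgfa ran from -0.82 in tumour 660 to 0.86 in 641 (SE 0.25, adjusted p = 0.0017, limma). With centred arrays both Egfr and Tgfa were at an adjusted p of 0.707. Errfi1, an inhibitor of ErbB kinases, ran from -1.19 in tumour 664 to 1.69 in 649 (SE 0.29, adjusted p = 2.44e-05, limma). Lrig1, which promotes loss of ErbB receptors from the cell surface, ran from -2.92 in tumour 655 to 2.29 in 647 (SE 0.78, adjusted p = 0.00531, limma).

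**Figure D3:**
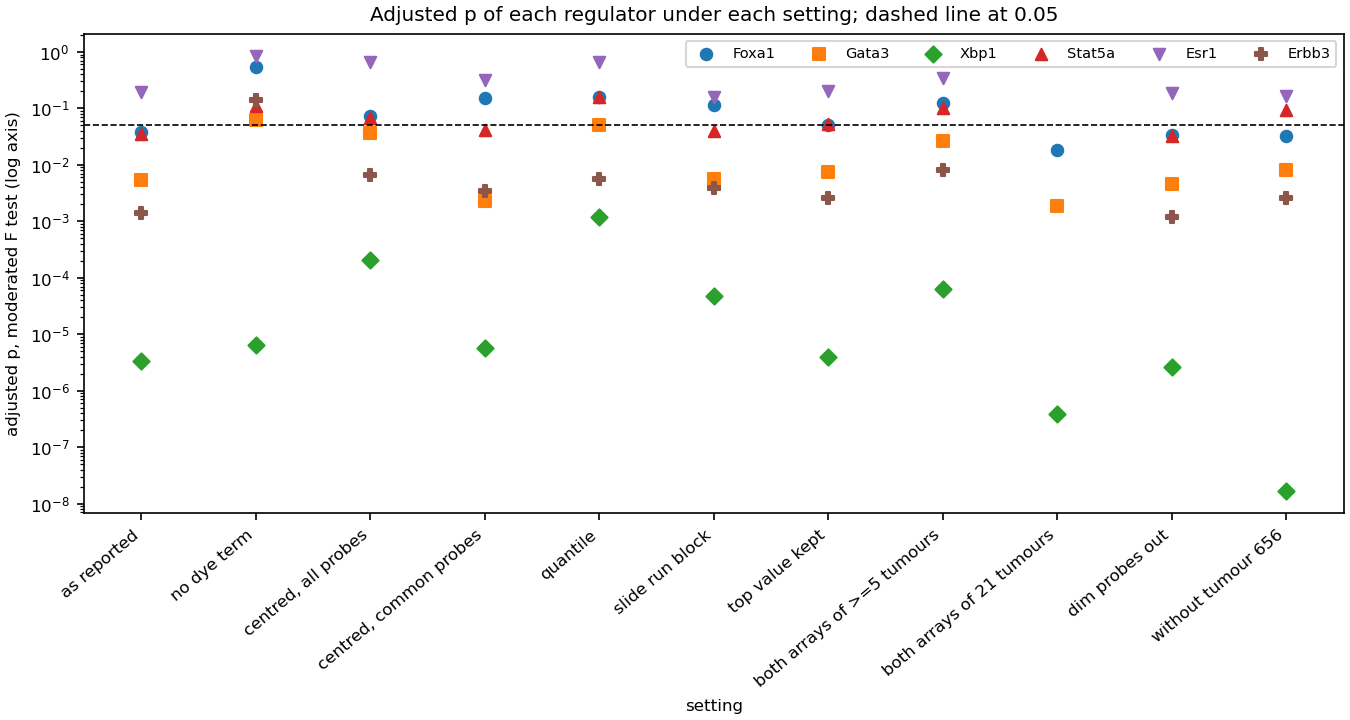
Adjusted p of the moderated F test (y axis, log scale) for each regulator under the reported setting and 10 alternatives (x axis); the dashed line is the threshold of 0.05. Xbp1 lies below the line in every setting where it is shown, Esr1 lies above it in every such setting, and Foxa1 and Stat5a cross it.

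Levels of Gata3, Stat5a, Esr1 and Erbb3 were correlated over the 21 tumours. All come from the same 2 arrays of each tumour, so the error of an array is shared between genes. In tumour 660 one array read -3.84 for Gata3, -4.51 for Stat5a, -3.69 for Esr1 and -3.70 for Erbb3. The other read 0.12, 0.85 and 1.35 for the first 3 and was blank for Erbb3. The permutation p-values below do not separate such error from differences between tumours, and its part was not tested. Gata3 and Stat5a were the closest pair (r = 0.879, adjusted p = 0.000375; rho = 0.901, adjusted p = 0.00075; permutation test). Stat5a and Erbb3 had r = 0.816 (adjusted p = 0.000375) and rho = 0.81, and Esr1 and Erbb3 had r = 0.771 (adjusted p = 0.0015) and rho = 0.803, by the same permutation test. Gata3 and Erbb3 had r = 0.76 (adjusted p = 0.0015) and rho = 0.723, and Stat5a and Esr1 had r = 0.618 (adjusted p = 0.0238) and rho = 0.668. For Gata3 and Esr1, r was 0.549 (adjusted p = 0.0682) and rho was 0.581 (adjusted p = 0.0422). These p-values were adjusted over 75 relations. Foxa1 with Epcam passed by rho and not by r, in 7 tumours high in both (rho = -0.929, adjusted p = 0.0422, exact permutation test). With arrays centred, r there was -0.411. So did Gata3 with Myc in 16 tumours of high Myc (rho = 0.644, adjusted p = 0.0477, permutation test), with a centred r of 0.084. No relation of Foxa1 with another regulator passed within its groups. By r, 9 relations passed: the 5 pairs of regulators named first and 4 with array level.

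That array level moved with them. Each of the 4 genes also correlated with the tumour's median over all measured probes, at r = 0.713 for Gata3, 0.637 for Stat5a, 0.642 for Esr1 and 0.637 for Erbb3 (adjusted p of 0.0069 for Gata3 and 0.0207 for the others, permutation test). None of the 4 correlated with the number of measured probes. The median r of a regulator with all other tested probes was already between 0.296 and 0.459. With arrays centred, Gata3 and Stat5a had r = 0.82, Stat5a and Erbb3 0.752, Esr1 and Erbb3 0.676, Gata3 and Erbb3 0.653, Stat5a and Esr1 0.467, and Gata3 and Esr1 0.294. As a description, 0.51% of all tested probes were at least as correlated with Gata3 as Stat5a was, and 28.6% at least as much as Esr1 was.

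Leaving out the 2 tumours farthest from the median of the first gene gave r = 0.874 for Gata3 and Stat5a, 0.744 for Stat5a and Erbb3, 0.71 for Esr1 and Erbb3, 0.758 for Gata3 and Erbb3, and 0.601 for Stat5a and Esr1. Tumour 660 was kept in each of these, so they do not test the part of its low array. In the 8 tumours whose arrays all lie in the third slide run, the only run with enough tumours, Gata3 and Stat5a had r = 0.852 and Esr1 and Erbb3 r = 0.757. These and the other 4 relations within the run did not pass (adjusted p of 0.0972 and 0.102 for those pairs, exact permutation test over 6 relations). There Gata3 and Esr1 had r = 0.043, Stat5a and Esr1 0.305, Gata3 and Erbb3 0.395, and Stat5a and Erbb3 0.587.

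**Figure D4:**
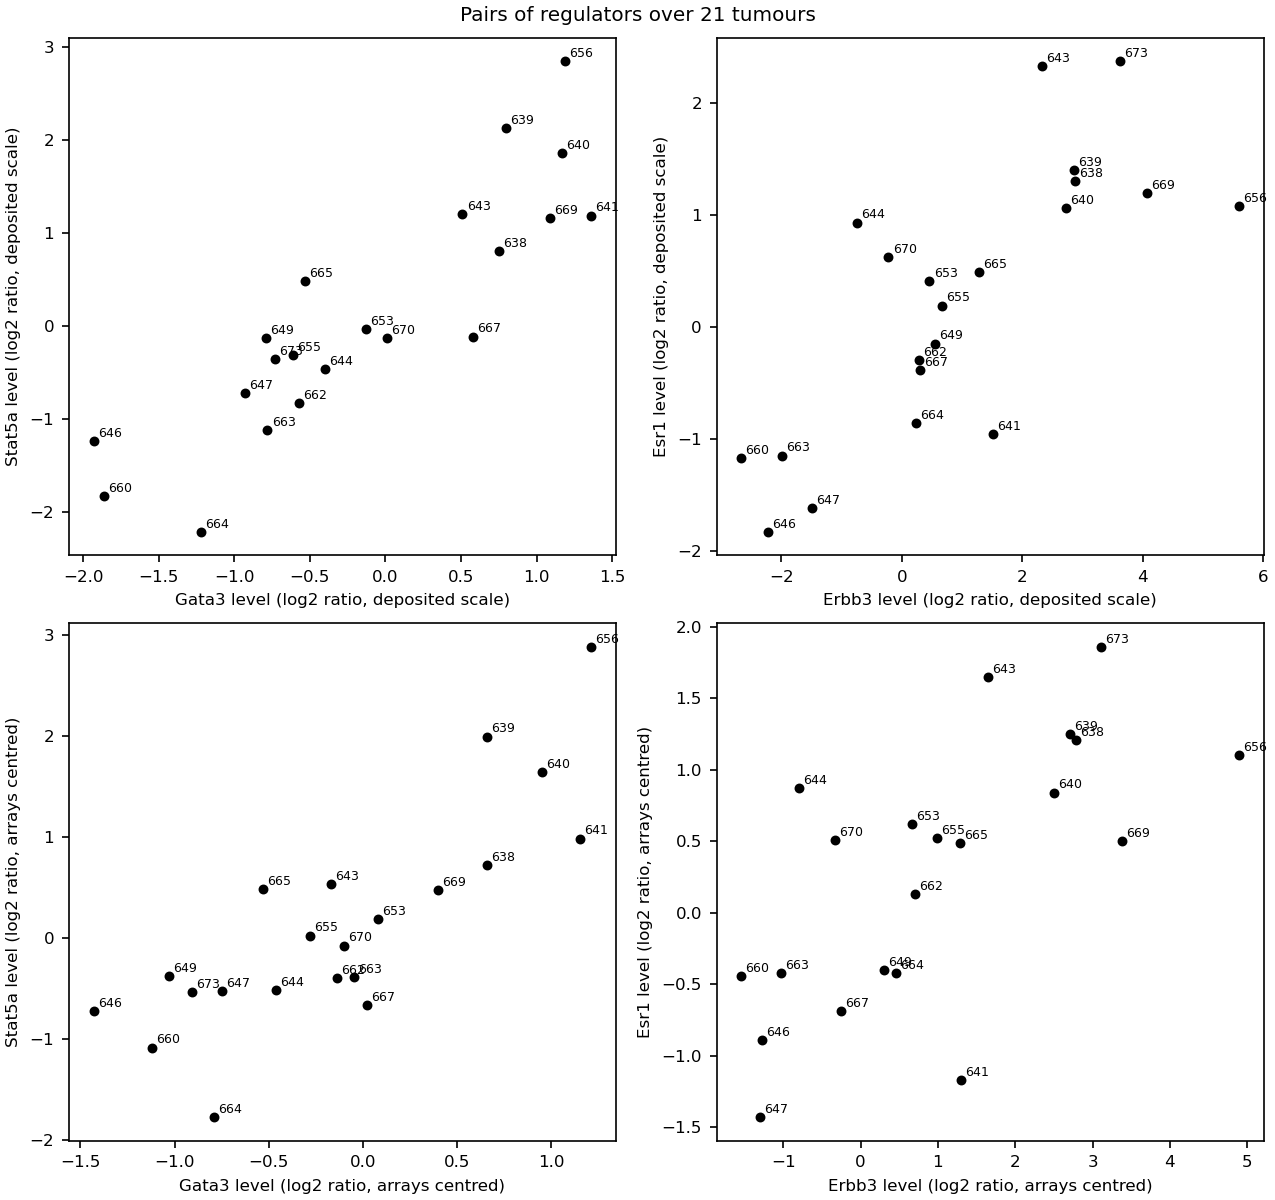
Levels of Gata3 and Stat5a (left) and of Erbb3 and Esr1 (right) in 21 tumours, on the deposited log2 scale (top) and with arrays centred (bottom), 1 point per tumour with its number. Gata3 and Stat5a had r = 0.879 before and 0.82 after centring, and Esr1 and Erbb3 had 0.771 and 0.676.

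The fitted levels of tumour 673 departed from that order, although no pair of tumours differed in Esr1. It had the highest Esr1, 2.37, and a high Erbb3, 3.62, both from the same single array. Gata3 was at -0.73, Stat5a at -0.35 and Xbp1 the lowest of all. On that same array Stat5a read 0.878, and on the other it read -1.585. Tumour 641 had the highest Gata3, 1.36, with Xbp1 at 2.92, Erbb3 at 1.51 and Esr1 at -0.96, the last from arrays of 0.48 and -2.39. Tumours 646 and 660 were below 0 in Foxa1, Gata3, Stat5a, Esr1 and Erbb3, with Foxa1 at -1.01 and -1.09, Gata3 at -1.93 and -1.86, Stat5a at -1.23 and -1.83, Esr1 at -1.83 and -1.17 and Erbb3 at -2.22 and -2.66. Xbp1 was -0.23 in tumour 646, among the lowest, and 0.60 in 660. Their medians over all measured probes were -0.50 and -0.74. One array of tumour 660 had the fewest measured probes of all arrays, 8600, and a median of -1.425. The other array of that tumour read above 0 for Gata3, Stat5a and Esr1. Erbb3 in both tumours and Esr1 in 646 rest on 1 array. Tumour 669, with the highest median of 0.70, was highest in both Foxa1 and Xbp1, but in neither with arrays centred on all measured probes. Centred on probes measured on all arrays, it was highest in Xbp1, at 2.65 beside 2.57 in tumour 641, and not in Foxa1.

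The genes whose levels were most like each regulator's were found among tested probes with values in at least 20 tumours. For Gata3 they were Stk39, Asl and Cpsf1 (r of 0.93, 0.93 and 0.92), for Stat5a they were Xrcc5, Nipsnap1 and Akap10 (0.93, 0.91 and 0.90), and for Xbp1 they were Atp5pb, Tcrb-V8.2 and Mdh1 (0.95 each). For Erbb3 they were Hivep3, Rbks and Daam1 (0.91 each), for Esr1 they were Oxct2a, 1700024N05Rik and Cox7a1 (0.91, 0.89 and 0.87), and for Foxa1 they were Zfp114, Mkrn3 and Dhodh (0.91, 0.91 and 0.90). None of these 18 genes was on the lists of pathway genes used here. Xrcc5, Nipsnap1, Rbks, Daam1, Oxct2a, Cox7a1, Zfp114, Mkrn3 and Dhodh did not themselves pass the test between tumours, and the others did. The adjusted p of those that did not ran from 0.0792 to 0.424 (limma's moderated F test). The levels share arrays with the regulators, and the part of array error in these r values was not tested. With arrays centred the values lay between 0.73 for Atp5pb and 0.93 for Xrcc5.

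Of 17 tested genes of the luminal and hormone response list 11 passed, or 64.7% where 45.9% of all genes did. Without the dye term 9 passed and with centred arrays 9, where 20.1% and 27% of all genes did. The probes of 8 genes passed in all 3 fits. Krt19, a keratin of simple epithelium, ran from -3.26 in tumour 656 to 2.31 in 663 (SE 0.32, adjusted p = 1.47e-07, limma). Ccnd1, the cyclin D1 gene, was highest in tumour 649 at 2.16 and lowest in 663 at -2.81 (SE 0.35, adjusted p = 8.13e-07, limma). Grhl2, an epithelial transcription factor, ran from -0.36 in tumour 646 to 4.97 in 667 (adjusted p = 1.44e-05, limma), and Id2, an inhibitor of helix-loop-helix factors, from -1.40 in 673 to 1.63 in 667 (adjusted p = 0.000236, limma). The luminal keratins Krt8 and Krt18 were both lowest in tumour 656, at 0.74 and -2.98 (adjusted p = 0.00272 and 0.0216, limma; 0.0744 for Krt8 with centred arrays). Krt8 was highest in tumour 649, at 3.24, 1 of the 5 tumours of high Vim.

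**Figure D5:**
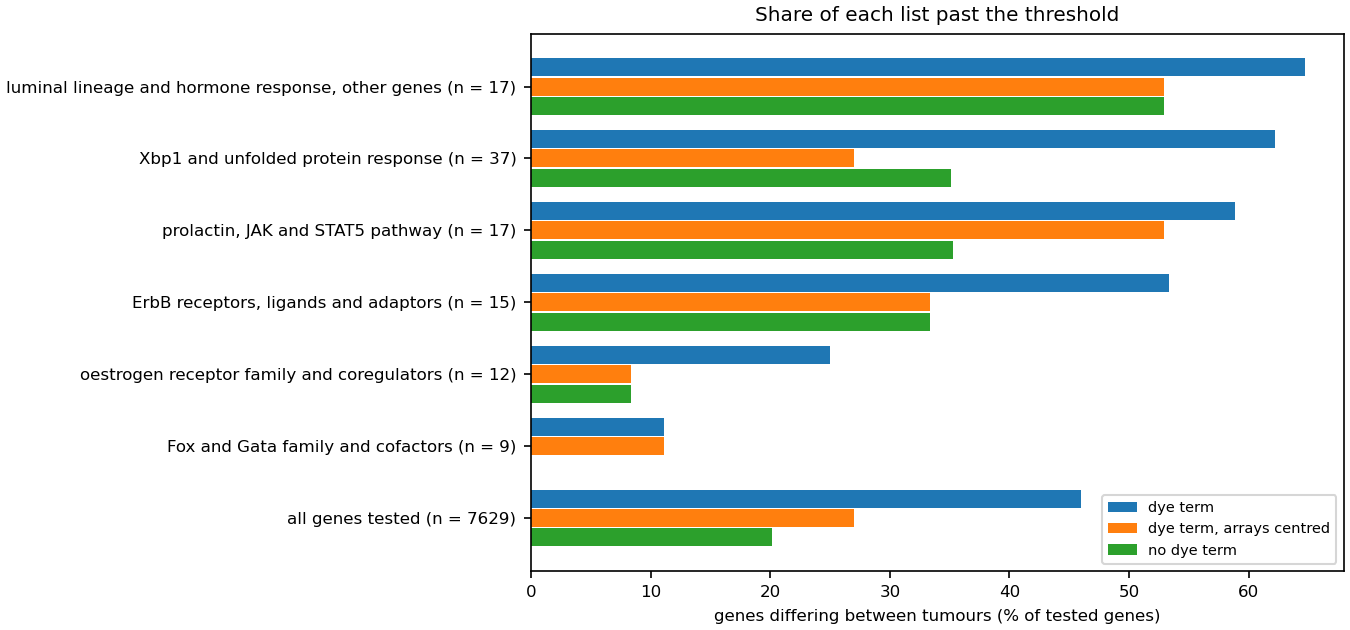
Share of tested genes that differed between tumours (x axis, percent) in 6 lists of genes around the regulators and among all 7629 tested genes (y axis, number tested in brackets), for 3 fits. The luminal list stands at 64.7% and the Fox and Gata list at 11.1%, beside 45.9% of all genes with the dye term.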

How the data were processed

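The authors' deposited table holds log2 dye ratios for 42 arrays of 21 tumours, a unit read from the values. The sources used here do not give the image analysis, normalization or dye order. The repeated top value of 16.61 (15512 values) was treated as missing, and 232 Gapdh control spots were averaged. Arrays were turned by the sign of the first eigenvector of the correlations between the pair differences, and the overall sign was set by Myc. Probes with both arrays in at least 15 tumours were tested with limma 3.58.1 in R 4.3.3: a linear model of tumour and dye orientation, moderated F test, Benjamini-Hochberg adjustment over 9407 probes, and 210 pairwise contrasts. The dye term was kept because it is balanced within tumours. It was known from earlier results to raise the count of calls, so fits without it stand beside the results. The fit was tested on simulated data. Correlations used 100000 permutations, or all orders with fewer than 10 tumours, within mclust 6.1.1 components.

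Members, lists and tests were chosen with earlier results of these data known. The text names all members, from each list up to 4 called genes of smallest p and the preset receptors, partners and keratins, and for each member the 3 genes most like it. Other genes were named after their values were seen: Foxo1, Foxm1 and Gata4. The probe of smaller p stood for a gene in lists. Of the probes, 16874 had 1 gene symbol. Stat5b, Prlr and Nrg1 had no probe annotated to them alone, and Elf5, Pgr and Esr2 were not tested. Alternatives covered the dye term, centring, quantile normalization, slide run, top value, blank and dim probe filters, tumour 656 and each array. Replicate arrays are technical.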

Additional observations from a re-analysis of the deposited data

How the results depend on the processing

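Across the planned settings, Xbp1 passed in 10 of 10, Gata3 in 8 of 10, Erbb3 in 8 of 9, Foxa1 in 4 of 10, Stat5a in 3 of 9 and Esr1 in 0 of 9 (limma). The cause of the changes was not tested. Called probes were 4132 as reported, and 1804 without the dye term, 2427 with arrays centred on all measured probes, 2004 after quantile normalization and 2550 with slide run as a block. They were 2702 of 20582 tested with both arrays of at least 5 tumours, and 2550 of 4038 with both arrays of all 21. Of the 6 regulators 1 passed without the dye term, 3 centred, 2 after quantile normalization and 3 under either blank filter, where the stricter one left 3 to test. In the same order, without the dye term, centred, after quantile normalization and with the block, 1534, 2059, 1677 and 2183 of all 7629 tested genes were called. The unfolded protein list then had 13, 10, 7 and 11 called of 37 tested genes and the ErbB list 5, 5, 3 and 5 of 15. The oestrogen receptor list had 1 in each of the first 3. The prolactin list had 6 without the dye term and 5 after quantile normalization. The Fox and Gata list had 0 without the dye term, where 1 had an unadjusted p under 0.05, and 2 with the block. With both arrays of at least 5 tumours the unfolded protein list had 14 of 39, where 2315 of 14140 genes were called. With both arrays of all 21 tumours, 2123 of 3326 genes were called. The luminal list then had 7 of 8, the Fox and Gata list 0 of 1, the oestrogen receptor list 1 of 5, the ErbB list 4 of 6 and the prolactin list 4 of 5.

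Chosen after seeing the data, centring with no dye term gave 1708 probes and 1 regulator. The 8 tumours of slide run 3 gave 319 probes and 1 regulator, Xbp1, and those of runs 1 and 2 gave 0 probes and 0 regulators. In run 1, 2599 of 11040 tested probes had an unadjusted limma p under 0.05, among them 3 of 6 probes of regulators. In run 2, 1264 of 9898 did, among them 2 of 5 probes of regulators. Each array left out in turn gave 3570 to 5410 probes, 3030 to 4620 of all tested genes and 3 to 5 regulators. It gave 10 to 13 genes of the luminal list, 0 to 3 of the Fox and Gata list, 3 to 5 of the oestrogen receptor list, 6 to 11 of the ErbB list, 8 to 12 of the prolactin list and 18 to 28 of the unfolded protein list. No paired analysis was possible because the labels give no replicate numbers that tumours could share. Blank cells limit Esr1 and Erbb3 most, with 39 and 36 of 42 arrays measured.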
